A study of Mus musculus with 6 samples.

Results

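The 49 genes described here are interferon-stimulated genes, taken by symbol from a list of their names, and all 49 were found once in each table of 47606 genes. They were sorted by role into 11 regulators, 11 sensors, 18 effectors, 5 genes of antigen processing and 4 others. Their RNA was measured in 6 libraries of mouse 32D cells, an established myeloid progenitor line that depends on interleukin 3 and was grown here in 1 ng/mL of it. All cells carried dCas9-KRAB, a Cas9 that cannot cut DNA joined to a repressor domain, received lentiviral particles and spent a week in puromycin, so these agents are shared by every group. There are 2 libraries with an empty vector (EV), 2 with guide sg2 and 2 with guide sg5, and an enhancer of CEBPE is named in the title of the series. Each group has a library labelled replicate 1 and a library labelled replicate 2, called number 1 and number 2 below, and the labels do not say what the number stands for. The library titled sg5 replicate 2 has a source name and a genotype that name sg2, and the title was followed here. Untransduced cells were not analysed here, and whether each group was a pool or a clone is not given in the sources used here.

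Interferons are secreted proteins that cells release on sensing viral or other foreign nucleic acid. They bind cell-surface receptors whose kinases, Jak1 and Tyk2, phosphorylate STAT proteins such as Stat2, which join Irf9 in a complex that binds a DNA element, the ISRE, in the promoters of interferon-stimulated genes. The products of those genes detect viral RNA, block viral entry, copying or translation, load peptides for display to T cells, or raise and damp the response itself. Type II interferon acts on another element, called GAS.

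Values are FPKM (fragments scaled to transcript length and to library size), so levels of different genes are on a per-length scale. Of the 49 genes, 42 averaged 1 FPKM or more across the libraries and were tested, among 12929 such genes in all, with limma on log2(FPKM + 1). A gene was called at a Benjamini-Hochberg adjusted p under 0.05 over all 12929 genes. Differences in log2 below are on that scale, which understates the change of low genes. Implied depth lay between 31800000 and 45800000 fragments a library. Cebpe measured 42.0 and 100.4 FPKM in EV numbers 1 and 2, 14.4 and 18.7 FPKM in the sg2 libraries, and 19.4 and 22.7 FPKM in the sg5 libraries, lower in all 4 guide libraries. The 9 markers listed for 32D cells were present except Kit, which was listed at 0 in every library. Their summed level was 1221 to 1288 FPKM in EV and 1165 to 1491 FPKM in the guide libraries.

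The interferons themselves were close to undetected. Of 12 interferon ligand genes examined, 10 were listed at 0 in every library, Ifna1 had 0.162 FPKM in the sg5 number 1 library alone and Ifnl3 had 0.0633 FPKM in the sg2 number 1 library alone. The receptor chain and kinase genes were present. Ifnar1, a chain of the type I receptor, measured 29.6 and 31.9 FPKM in the EV libraries, 31.9 and 32.8 FPKM in those of sg2, and 30.7 and 32.7 FPKM in those of sg5, in the order number 1 and number 2. Its partner chain Ifnar2 measured 70.7 and 112 FPKM in the EV libraries, 83.0 and 111 FPKM in those of sg2, and 90.5 and 109 FPKM in those of sg5. Tyk2 lay between 27.9 and 36.0 FPKM and Jak1 between 87.7 and 100.03 FPKM over the 6 libraries. Ifnlr1, the specific chain of the type III receptor, stayed at or below 0.0525 FPKM.

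The summed level of the 49 genes was 8516 and 7844 FPKM in EV, 9011 and 7991 FPKM in sg2 cells, and 8499.6 and 6744 FPKM in sg5 cells, each pair giving number 1 and then number 2. Number 1 was above number 2 in each group, and the EV libraries lay within the range of the guide libraries. Most of this sum was Ifitm1, Ifitm2 and Ifitm3, membrane proteins that hinder the entry of enveloped viruses. Without these 3 genes the sum was 1710 and 2573 FPKM in EV, 1746 and 2779 FPKM in sg2 cells, and 1724 and 2487 FPKM in sg5 cells. That order was the reverse, with number 2 above number 1 in each group and no overlap between numbers.

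Guide and EV cells were compared first, since the design sets the empty vector against the guides. None of the 42 tested interferon-stimulated genes was called in guides against EV, where 0.0% of all genes tested were called. The smallest adjusted p was 1.00 among the 42 and 0.081 over all genes tested. Cebpe, lower in every guide library, was thus not called in this fit either. The lack of calls therefore does not show that guides and EV are alike. At an unadjusted p under 0.05 the same fit held 169 genes, with 0 of the 42. With the replicate number as a block, 0 of the 42 were called against 0.0387% of all genes (5 genes), and 4 of the 42 had an unadjusted p under 0.05, beside 739 of all genes tested (5.72%). The median log2 difference, guides minus EV, was 0.05 over the 42 genes, of which 27 were positive and 15 negative, and -0.00463 over all genes tested. In the fit without the block, that median was -0.12 without EV replicate 1 and 0.18 without EV replicate 2. Either leave-out sets guide libraries of both numbers against an EV library of a single number. The same leave-outs gave 0.026 and 0.073 with the block. With the block, the 95% interval of the difference lay within 1 log2 unit of 0 for 40 of the 42 genes, the exceptions being Ifi27l2a and Mx2, and within 0.5 for 28. In these bulk libraries fewer cells of a type and less RNA per cell cannot be told apart.

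No tested interferon-stimulated gene separated the groups fully. The count whose 4 guide libraries all lay above both EV libraries was 0 of 42 (2.54% of all genes tested), and the count all below was 0 of 42 (2.56%). Within each number, set against its EV library, 12 of the 42 were higher with both guides in both numbers (12.5% of all genes): Adar, Gbp3, Ifi27, Ifi27l2a, Irf1, Irf7, Mx1, Mx2, Oas2, Parp9, Rsad2 and Trim30a. Ifi35, Oas1a, Psmb10 and Trim25, 4 of the 42, were lower in the same way (12.5% of all genes). Neutrophil marker genes, with 8 on the list and Retnlg at 0 throughout, summed to 448 to 680 FPKM in EV and 132 to 188 FPKM in the guide libraries. The 7 mast cell and basophil markers summed to 1553 and 3088 FPKM in EV and 2258 to 3636 FPKM in the guide libraries. The part of either list in these patterns was not tested.

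**Figure D1:**
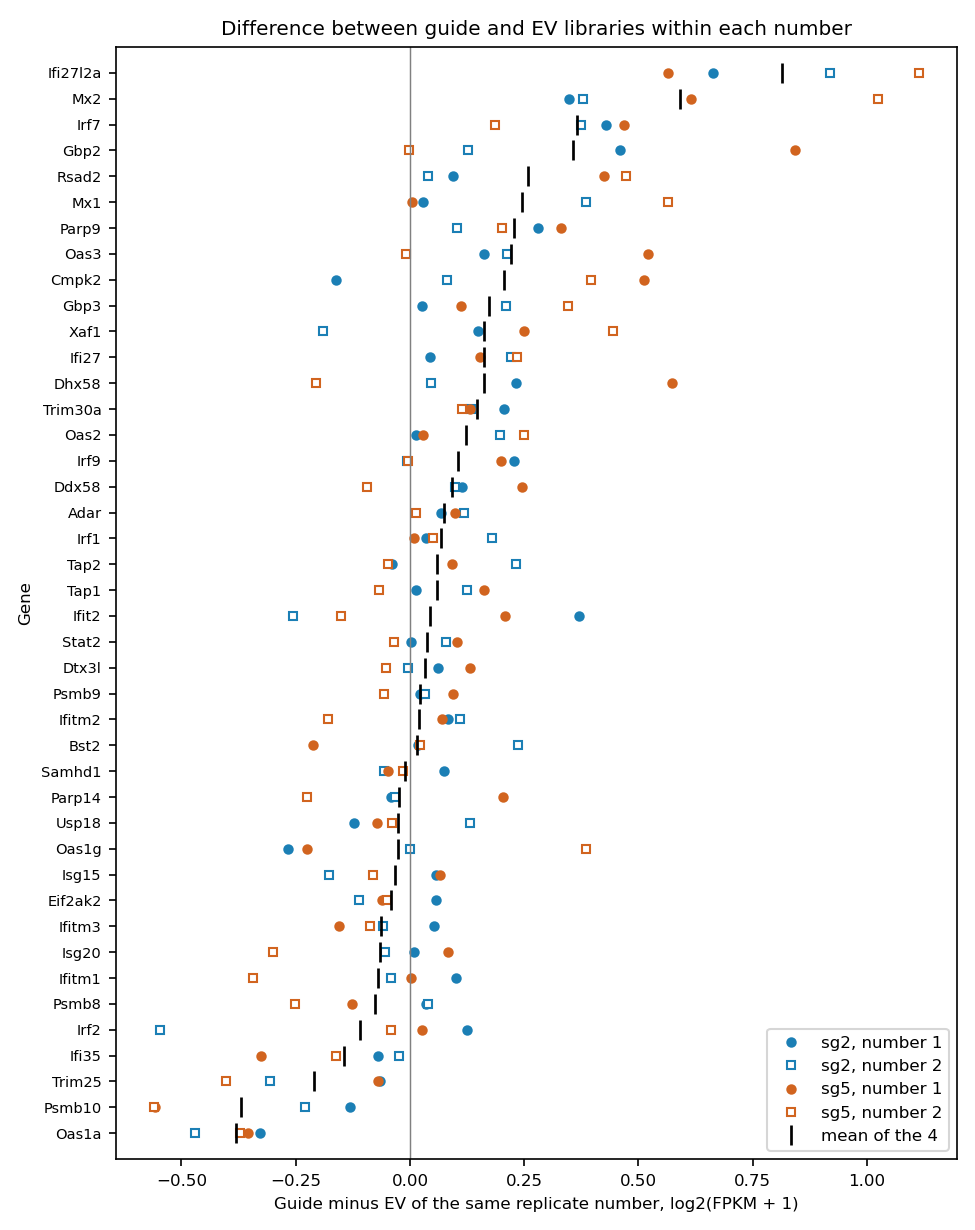
Each tested interferon-stimulated gene (42 rows) is shown by its difference between a guide library and the EV library that carries its replicate number, in log2(FPKM + 1) on the horizontal axis. Circles are number 1, open squares number 2, blue sg2 and orange sg5, and the bar is the mean of the 4. Most points lie near 0, Ifi27l2a stands at the top with all 4 points to the right and Oas1a at the bottom with all 4 to the left, and no gene passed the test.

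The 4 genes below were chosen after their values were seen, as those with an unadjusted p under 0.05 in the blocked fit. Ifi27l2a, which encodes a small interferon-induced membrane protein (ENSMUSG00000079017, GRCm38 chromosome 12, 103442167 to 103443680, minus strand), measured 7.40 and 12.2 FPKM in the EV libraries, 12.3 and 24.0 FPKM in those of sg2, and 11.4 and 27.6 FPKM in those of sg5, number 1 first. Both guides were above EV within each number, but the number 1 guide libraries lay close to the EV library of number 2, so the groups overlapped. The log2 difference was 0.82 (SE 0.42, adjusted p = 1.00) without the block, and with it the adjusted p was 0.251 (SE 0.12). Its mean was 18.8 ± 8.17 FPKM in the guide libraries (SD, n = 4) and 9.81 ± 3.40 FPKM in EV (SD, n = 2). Within numbers the guide level was 1.66 times EV with sg2 and 1.54 times with sg5 in number 1, and 1.96 and 2.26 times in number 2.

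Oas1a, which encodes a sensor that turns double-stranded RNA into the signal molecule that activates RNase L (ENSMUSG00000052776, GRCm38 chromosome 5, 120896256 to 120907521, minus strand), measured 26.6 and 19.6 FPKM in the EV libraries, 20.97 and 13.9 FPKM in those of sg2, and 20.6 and 14.9 FPKM in those of sg5. Here the guide libraries were the lower ones within each number, and the number 1 guide libraries exceeded the EV library of number 2. The log2 difference was -0.38 (SE 0.23, adjusted p = 1.00), with an adjusted p of 0.375 under the block (SE 0.068). Its neighbour Oas1g shares sequence with it: 68.7% of the 31-base words of Oas1a transcripts also occur in Oas1g, so the division of fragments between them is uncertain. The sum of both was 28.3 and 21.8 FPKM in EV, 22.2 and 16.0 FPKM for sg2, and 21.9 and 18.0 FPKM for sg5. That sum stood at 0.785 and 0.736 times EV with sg2 and at 0.774 and 0.8285 times with sg5, in numbers 1 and 2.

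Irf7, the transcription factor that amplifies type I interferon production, measured 5.85 and 10.1 FPKM in the EV libraries, 8.22 and 13.4 FPKM in those of sg2, and 8.46 and 11.6 FPKM in those of sg5. Both guides were above EV within each number, and the ranges of guides and EV overlapped. Its log2 difference was 0.36 (SE 0.28, adjusted p = 1.00), with an adjusted p of 0.667 under the block (SE 0.093). Parp9, an ADP-ribosyltransferase that works with Dtx3l in interferon signalling, measured 12.5 and 8.28 FPKM in the EV libraries, 15.4 and 8.96 FPKM in those of sg2, and 16.0 and 9.66 FPKM in those of sg5. The guide excess in Parp9 was smaller than its gap between numbers. The difference was 0.23 (SE 0.30, adjusted p = 1.00), with an adjusted p of 0.813 under the block (SE 0.079). In the fit without the block, it was -0.043 without EV replicate 2 and 0.50 without EV replicate 1. Those leave-outs set guide libraries of both numbers against an EV library of a single number. Within each number, both guides were above EV.

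Taken singly, neither guide gave a called interferon-stimulated gene. The count was 0 of 42 for sg2 against EV (0.00773% of all genes called, and 0.0232% with the block) and 0 of 42 for sg5 against EV (0.0% and, with the block, 0.0155%). At an unadjusted p under 0.05 both fits held 0 of the 42 without the block, beside 150 genes for sg2 and 176 genes for sg5. With it they held 3 of the 42 for sg2, beside 556 genes (4.30%), and 7 of the 42 for sg5, beside 1039 genes (8.04%). For sg5 against sg2, 0 of 42 were called, as were 0.0% of all genes with or without the block, with 111 genes and 0 of the 42 at an unadjusted p under 0.05 without it, and 684 genes and 2 of the 42 with it. Both guide comparisons share the EV libraries. An interaction of guide and number, fitted over all 6 libraries, called 0 of 42 and 0.0% of all genes, with 541 genes and 0 of the 42 at an unadjusted p under 0.05. With no filter on low values it called 243 genes and with no intensity trend 27, none of them interferon-stimulated genes of the list.

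Cmpk2, Isg15 and Xaf1, 3 of the 42, had both sg5 libraries above both sg2 libraries (6.71% of all genes), and 0 had both below (6.85%). Cmpk2, a mitochondrial nucleotide kinase gene next to Rsad2, measured 1.19 and 1.402 FPKM in the EV libraries, 0.959 and 1.54 FPKM in those of sg2, and 2.12 and 2.16 FPKM in those of sg5. Its sg5 libraries were the highest of the 6, and sg5 minus sg2 was 0.49 (SE 0.29, adjusted p = 1.00). Xaf1, a pro-apoptotic partner of the inhibitor XIAP, measured 5.34 and 6.22 FPKM in the EV libraries, 6.02 and 5.32 FPKM in those of sg2, and 6.54 and 8.83 FPKM in those of sg5. The sg5 number 2 library, the one whose genotype label names sg2, was the highest, and the difference was 0.37 (SE 0.21, adjusted p = 1.00). Counted as sg2, it brought the Xaf1 difference to -0.00888. Isg15, a ubiquitin-like modifier, measured 4.03 and 4.59 FPKM in the EV libraries, 4.24 and 3.95 FPKM in those of sg2, and 4.27 and 4.28 FPKM in those of sg5. All 6 values of Isg15 lay close together, and sg5 minus sg2 was 0.05 (SE 0.19, adjusted p = 1.00).

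In the comparison of replicate numbers, Ifitm3 and Psmb10 were lower and Mx1, Psmb9, Usp18 and Tap1 higher in number 2 by more than 1 log2 unit. Mx2 and Rsad2 were higher by more than that too, but were under 1 FPKM in each number 1 library and passed the filter on low values only through number 2, so their call is no support. Between numbers 2 and 1, 32 of the 42 interferon-stimulated genes were called (76.2%), against 47.1% of all 12929 genes. Higher in number 2 were 20 of the 42 (20.2% of all genes) and lower were 12 (26.9% of all genes). Mx2 and Rsad2 are counted in the 32 and the 20, and in the median and counts of the 42 that follow. The median log2 difference, number 2 minus number 1, was 0.30 over the 42 genes and -0.04 over all genes tested. Of all genes called, 2617 were higher and 3472 lower, and under median-of-ratios scaling 3142 were higher and 2904 lower, with a median over all genes of 0.023. All 3 libraries of number 2 lay above all 3 of number 1 for 21 of the 42 (27.0% of all genes) and below for 13 (34.1% of all genes). With 1 library left out at a time, between 20 and 28 of the 42 were called, beside 24.8 to 33.6% of all genes tested. Whichever library was left out, 18 of the 42 were called, 10 of them higher (Mx2 and Rsad2 included) and 8 lower. The like count over all genes was not taken. Dtx3l changed sign under median-of-ratios scaling, and neither sign was called.

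Some other measures moved with the number, and their part in these differences was not tested. Transcripts under 200 nt held 6.77 to 9.67% of the summed FPKM in number 1 and 15.4 to 21.5% in number 2. The 7 macrophage markers summed to 85.5 to 105 FPKM in number 1 and 151 to 169 FPKM in number 2, with C1qa and Marco at 0 in every library and 4 of the 7 under 1 FPKM throughout. The 5 plasmacytoid dendritic cell markers summed to 1.34 to 1.74 and to 2.45 to 3.36 FPKM, with 3 of them under 1 FPKM throughout. The 6 lymphoid markers summed to 21.3 to 42.4 and to 49.1 to 116 FPKM, with Cd3e and Ncr1 at 0 throughout and 4 of the 6 under 1 FPKM. The 7 mast cell and basophil markers summed to 1553 to 3162 and to 3088 to 3636 FPKM, so their ranges overlapped. Ranges also overlapped for the neutrophil list (154 to 448 and 132 to 680 FPKM) and the 32D list (1177 to 1491 and 1165 to 1221 FPKM). The erythroid list overlapped as well (8.40 to 14.4 and 7.28 to 22.7 FPKM). What the number stands for, and therefore any batch, cannot be told apart from the difference between the numbers.

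**Figure D2:**
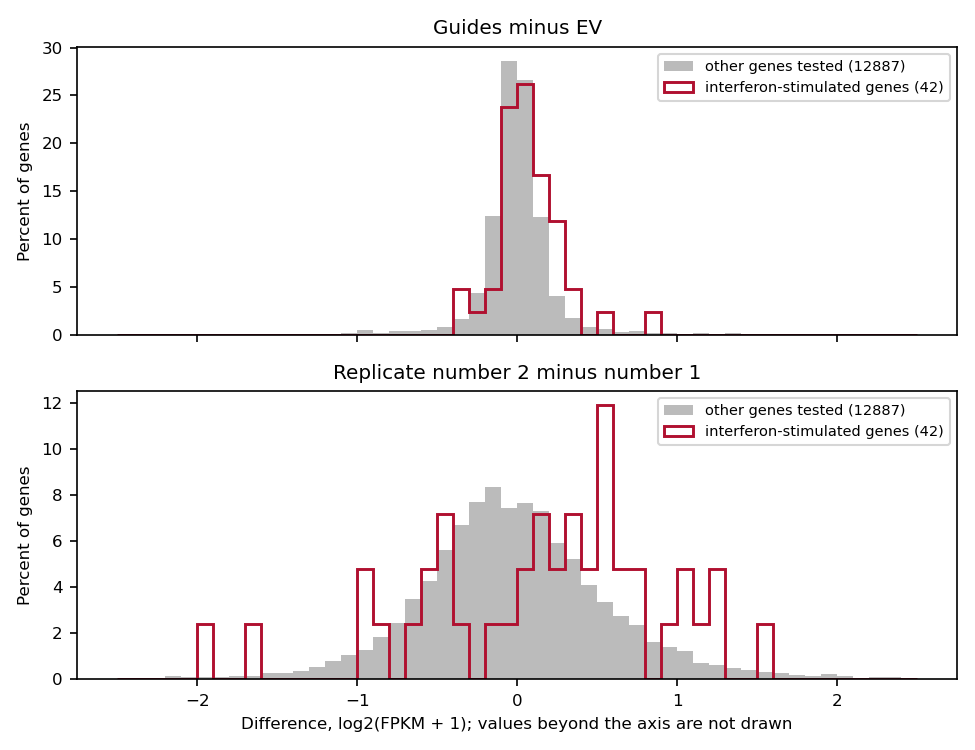
Histograms of the difference in log2(FPKM + 1) (horizontal axis) as percent of genes (vertical axis) for the 42 tested interferon-stimulated genes (red outline) and the other genes tested (grey), for guides minus EV above and number 2 minus number 1 below. In the upper panel both centre near 0, with medians of 0.05 for the 42 genes and -0.00463 for all genes; in the lower panel the 42 genes spread to both sides, with a median of 0.30 against -0.04.

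**Figure D3:**
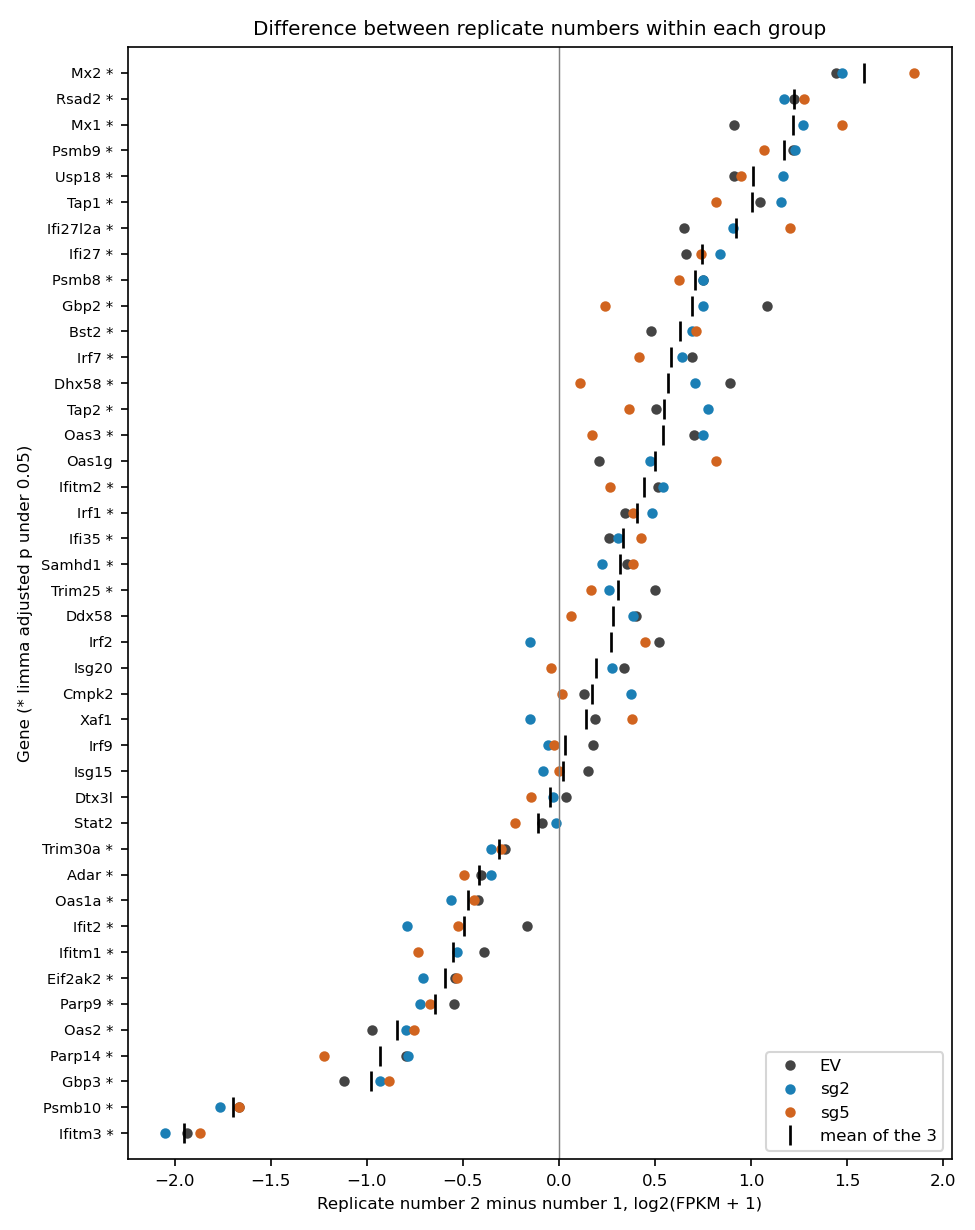
For each tested interferon-stimulated gene (42 rows), 3 points give number 2 minus number 1 within EV (dark grey), sg2 (blue) and sg5 (orange) in log2(FPKM + 1), and the bar gives their mean; an asterisk marks the 32 genes with a limma adjusted p under 0.05. The genes run from Ifitm3 at the bottom, near -1.95 in all 3 groups, to Mx2 at the top, near 1.59, and the 3 groups lie on the same side of 0 for every called gene.

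Among the 11 regulators, all tested, 4 were higher in number 2 (20.2% of all genes), 3 were lower (26.9%) and 4 were not called. Usp18, the protease that removes Isg15 from proteins and blocks the type I receptor (ENSMUSG00000030107, GRCm38 chromosome 6, 121245906 to 121270917, plus strand), measured 6.64, 6.02 and 6.27 FPKM in the EV, sg2 and sg5 libraries of number 1 and 13.4, 14.8 and 13.0 FPKM in those of number 2. The number 2 libraries were all above the number 1 libraries, with means of 6.31 ± 0.312 FPKM in number 1 and 13.7 ± 0.924 FPKM in number 2 (SD, n = 3 each). The log2 difference was 1.01 (SE 0.088, adjusted p = 0.00263). Irf7 gave 0.58 (SE 0.090, adjusted p = 0.00843), with all number 2 libraries above those of number 1. Irf1, a factor of type II interferon and antigen-presentation genes, ran from 33.7 to 48.9 FPKM and gave 0.41 (SE 0.064, adjusted p = 0.00888). Trim25, the ubiquitin ligase that helps activate RIG-I, ran from 19.0 to 28.7 FPKM and gave 0.31 (SE 0.089, adjusted p = 0.045), a call lost without the group term at 0.31 (SE 0.11, adjusted p = 0.0541).

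The lower regulators included both ADP-ribosyltransferase genes. Parp14 measured 4.28, 4.13 and 5.08 FPKM in the EV, sg2 and sg5 libraries of number 1 and 2.05, 1.98 and 1.61 FPKM in those of number 2, with no overlap between the numbers. Its log2 difference was -0.93 (SE 0.15, adjusted p = 0.00945). Parp9 likewise had all its number 2 values below those of number 1, at -0.65 (SE 0.075, adjusted p = 0.00436). Dtx3l, the ubiquitin ligase whose gene starts beside Parp9 on the opposite strand and overlaps it, stayed between 13.4 and 15.0 FPKM. Trim30a, a negative regulator of Toll-like receptor signalling that shares 11.9% of its 31-base words with other genes, gave -0.31 (SE 0.061, adjusted p = 0.0155). The calls of Trim25 and Trim30a were lost whichever library was left out, with an adjusted p of up to 0.165 and 0.08, that of Irf7 when any single EV or sg2 library was left out (up to 0.0592), and that of Irf1 when either sg2 library was left out (up to 0.0537).

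Stat2, Irf9 and Irf2, transcription factors of the response, were not called between the numbers. Stat2 measured 23.2, 23.2 and 25.0 FPKM in the EV, sg2 and sg5 libraries of number 1 and 21.7, 23.03 and 21.2 FPKM in those of number 2. The number 2 values were all lower but only slightly, at -0.11 (SE 0.073, adjusted p = 0.268). Irf9, the DNA-binding subunit, which overlaps Rnf31, lay between 16.5 and 19.5 FPKM with the numbers overlapping. Irf2, which competes with Irf1 for its element, lay between 18.0 and 26.8 FPKM, also overlapping.

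Of the 11 sensors 7 were tested. Of these 2 were higher in number 2 (20.2% of all genes), 3 lower (26.9%) and 2 not called. Oas2 and Oas3, adjacent genes on chromosome 5 that lie 3244 bases apart and both make 2′-5′ oligoadenylate, went opposite ways. Oas2 measured 8.55, 8.64 and 8.74 FPKM in the EV, sg2 and sg5 libraries of number 1 and 3.86, 4.56 and 4.78 FPKM in those of number 2, and Oas3 measured 6.24, 7.10 and 9.38 FPKM in the EV, sg2 and sg5 libraries of number 1 and 10.8, 12.6 and 10.7 FPKM in those of number 2. No library of one number reached the range of the other for either gene. The differences were -0.84 (SE 0.093, adjusted p = 0.00396) for Oas2 and 0.54 (SE 0.14, adjusted p = 0.034) for Oas3. The ratio of Oas3 to Oas2 was 0.730, 0.821 and 1.07 in number 1 and 2.79, 2.77 and 2.24 in number 2.

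Eif2ak2, the kinase PKR that halts translation on binding double-stranded RNA, measured 34.6, 36.0 and 33.1 FPKM in the EV, sg2 and sg5 libraries of number 1 and 23.5, 21.6 and 22.6 FPKM in those of number 2. It was lower in every number 2 library, at -0.59 (SE 0.070, adjusted p = 0.0045). Oas1a was lower in number 2 as well, at -0.47 (SE 0.068, adjusted p = 0.00694). Dhx58, the LGP2 helicase, ran from 10.8 to 21.5 FPKM and was higher in number 2, at 0.57 (SE 0.17, adjusted p = 0.0471). The calls of Oas3 and Dhx58 were lost when any single EV or sg2 library was left out, with an adjusted p of up to 0.155 and 0.192. Ddx58, which encodes the RNA sensor RIG-I, lay between 27.0 and 38.5 FPKM, with all number 2 values above number 1, and gave 0.28 (SE 0.093, adjusted p = 0.0644). Oas1g lay between 1.27 and 3.12 FPKM, also with all number 2 values above number 1, and gave 0.50 (SE 0.19, adjusted p = 0.087). Neither passed the test in this fit, and both were called in the fit without the group term, at 0.28 (SE 0.086, adjusted p = 0.0332) for Ddx58 and 0.50 (SE 0.17, adjusted p = 0.0498) for Oas1g. Ddx58 was also called under median-of-ratios scaling and in some other alternatives.

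The promoters of Oas1a and Oas1g are shown because these near copies, whose reads are hard to divide, carry the same run of ISRE letters. Sequences here are from RefSeq on GRCm38.p6, 5′ to 3′ on the gene's strand, with 130 bases before the RefSeq start and 30 after it, and capitals mark matches to the ISRE core GAAANNGAAA, searched on both strands, with overlapping matches joined. Both windows hold 2 overlapping cores, and the windows were 89.5% identical when aligned.
Oas1a (chr5:120907496-120907655, minus strand): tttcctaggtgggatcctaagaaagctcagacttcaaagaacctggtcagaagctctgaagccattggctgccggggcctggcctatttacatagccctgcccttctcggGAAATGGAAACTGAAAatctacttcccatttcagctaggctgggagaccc
Oas1g (chr5:120887584-120887743, minus strand): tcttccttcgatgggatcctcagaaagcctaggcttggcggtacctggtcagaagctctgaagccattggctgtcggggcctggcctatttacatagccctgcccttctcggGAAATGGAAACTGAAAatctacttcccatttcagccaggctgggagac

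The sensors Ifih1, Oasl1, Oasl2 and Zbp1 and the effectors Ifit1, Ifit3 and Rtp4 had means under 1 FPKM and were not tested. Ifih1, which encodes the RNA sensor MDA5, was listed at 0 in 4 libraries and at 0.0106 and 0.00482 FPKM in sg2 number 1 and sg5 number 2, where 3 fragments correspond to 0.0124 to 0.0179 FPKM. Ifih1 was thus under what 3 fragments give in every library, while Ddx58 was at 27.0 FPKM or more. Ifit1, which binds the caps of viral RNA, lay between 0.0752 and 0.216 FPKM, and Oasl1 between 0 and 0.324 FPKM. Ifit3, which shares 61.8% of its 31-base words with Ifit3b, lay between 0.0162 and 0.258 FPKM. Oasl2 lay between 0.324 and 0.727 FPKM. Zbp1, a sensor of Z-form nucleic acid, measured 0.210, 0.313 and 0.529 FPKM in the EV, sg2 and sg5 libraries of number 1 and 0.463, 0.492 and 1.03 FPKM in those of number 2. Rtp4 measured 0.957, 1.28 and 1.07 FPKM in the EV, sg2 and sg5 libraries of number 1 and 0.361, 0.208 and 0.565 FPKM in those of number 2, so all its number 2 values were below those of number 1.

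Of the 18 effectors 15 were tested, with 7 higher in number 2 (Mx2 and Rsad2 included), 5 lower and 3 not called. Over all genes tested, 20.2% were higher and 26.9% lower. The Ifitm cluster on chromosome 7 held the highest levels and the lowest log2 difference of the 42. Ifitm3 (ENSMUSG00000025492, GRCm38 chromosome 7, 141009586 to 141010770, minus strand) measured 635, 659 and 569.5 FPKM in the EV, sg2 and sg5 libraries of number 1 and 165, 158 and 155 FPKM in those of number 2. The 3 number 2 libraries stood close together and far below those of number 1, with means of 621 ± 46.1 FPKM in number 1 and 159.6 ± 5.01 FPKM in number 2 (SD, n = 3 each). The log2 difference was -1.95 (SE 0.064, adjusted p = 0.00151). Ifitm2 (ENSMUSG00000060591, GRCm38 chromosome 7, 140954837 to 140955987, minus strand) measured 587, 622 and 617 FPKM in the EV, sg2 and sg5 libraries of number 1 and 841, 907 and 743 FPKM in those of number 2, the opposite order with no overlap. Its log2 difference was 0.44 (SE 0.079, adjusted p = 0.0124).

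Ifitm2 and Ifitm3 separated the numbers in opposite ways, so the ratio of Ifitm2 to Ifitm3 had to separate them too. It was 0.925, 0.945 and 1.08 in the EV, sg2 and sg5 libraries of number 1 and 5.10, 5.73 and 4.78 in those of number 2. Ifitm1, the most abundant of the 49, lay between 3359 and 5985 FPKM and was lower in number 2, at -0.55 (SE 0.088, adjusted p = 0.00915). Copies make these values uncertain, since 55.5% of the 31-base words of Ifitm2, 20.5% of those of Ifitm3 and 11.6% of those of Ifitm1 occur in other genes. The Ifitm2 call was lost when any single EV or sg2 library was left out (adjusted p up to 0.0736), and that of Ifitm1 when either sg2 library was left out (up to 0.0563).

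The promoters of Ifitm2 and Ifitm3 are shown because these related genes went opposite ways between numbers. Window, source and capitals are as above. Ifitm2 has 1 ISRE core upstream of its start, Ifitm3 has 2 after its start, and the aligned windows differ along much of their length.
Ifitm2 (chr7:140955932-140956091, minus strand): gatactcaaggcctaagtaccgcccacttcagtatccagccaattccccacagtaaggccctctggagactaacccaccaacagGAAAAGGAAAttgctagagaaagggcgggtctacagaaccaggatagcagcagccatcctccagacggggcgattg
Ifitm3 (chr7:141010715-141010874, minus strand): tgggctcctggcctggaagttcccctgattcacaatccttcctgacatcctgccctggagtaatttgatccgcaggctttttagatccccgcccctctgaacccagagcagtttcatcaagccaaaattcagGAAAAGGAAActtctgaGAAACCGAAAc

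Mx1 and Mx2, dynamin-like GTPases that trap viral particles, were higher in number 2. Mx1 (ENSMUSG00000000386, GRCm38 chromosome 16, 97447035 to 97462907, minus strand) measured 4.11, 4.21 and 4.12 FPKM in the EV, sg2 and sg5 libraries of number 1 and 8.62, 11.6 and 13.2 FPKM in those of number 2. The number 1 libraries were nearly equal, and all of number 2 were higher, that of sg5 most. This gave a log2 difference of 1.22 (SE 0.13, adjusted p = 0.0039). Mx2 was low in number 1 and measured 0.0540, 0.341 and 0.614 FPKM in the EV, sg2 and sg5 libraries of number 1 and 1.86, 2.72 and 4.82 FPKM in those of number 2. GENCODE lists Mx2 as a polymorphic pseudogene, and its log2 difference was 1.59 (SE 0.20, adjusted p = 0.00508). Mx2 passed the filter on low values only through number 2, so this call is no support. Rsad2, which encodes viperin, a radical enzyme that makes a chain-terminating nucleotide, measured 0.328, 0.417 and 0.782 FPKM in the EV, sg2 and sg5 libraries of number 1 and 2.10, 2.19 and 3.31 FPKM in those of number 2. It too was higher in every number 2 library, at 1.22 (SE 0.18, adjusted p = 0.0074). Like Mx2, Rsad2 passed the filter only through number 2, so its call is no support either. Its neighbour Cmpk2, 12751 bases away, was not called.

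The guanylate-binding protein genes Gbp2 and Gbp3, GTPases that attack the vacuoles of intracellular pathogens, lie 47392 bases apart and went opposite ways. Gbp3 measured 4.38, 4.48 and 4.82 FPKM in the EV, sg2 and sg5 libraries of number 1 and 1.48, 1.87 and 2.15 FPKM in those of number 2. Gbp2 measured 2.80, 4.23 and 5.81 FPKM in the EV, sg2 and sg5 libraries of number 1 and 7.07, 7.80 and 7.05 FPKM in those of number 2. Numbers did not overlap for either gene. The differences were -0.98 (SE 0.13, adjusted p = 0.00543) for Gbp3 and 0.69 (SE 0.18, adjusted p = 0.0358) for Gbp2. The ratio of Gbp2 to Gbp3 was 0.639, 0.944 and 1.21 in number 1 and 4.78, 4.17 and 3.28 in number 2. The Gbp2 call was lost when any single EV or sg2 library was left out (adjusted p up to 0.151).

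Among the remaining effectors, Bst2 (tetherin, which holds budding virus at the membrane) ran from 199 to 378 FPKM and was higher in number 2, at 0.63 (SE 0.073, adjusted p = 0.00437). Samhd1, which removes the nucleotides viruses need for DNA synthesis, ran from 57.8 to 76.6 FPKM and was higher, at 0.32 (SE 0.065, adjusted p = 0.0173). Adar, the enzyme that edits adenosine in double-stranded RNA and whose transcripts share 15.4% of their 31-base words with Chrnb2, ran from 18.4 to 26.5 FPKM and was lower, at -0.42 (SE 0.066, adjusted p = 0.00887). Ifit2, a member of the family of Ifit1, ran from 3.94 to 7.55 FPKM and was lower, at -0.49 (SE 0.15, adjusted p = 0.0499). The Ifit2 call was lost under median-of-ratios scaling and without every library except EV replicate 2 (adjusted p up to 0.192). Samhd1 lost its call when any single EV or sg5 library was left out (up to 0.0923) and Adar when either EV library was left out (up to 0.0567). Isg20, an RNA exonuclease, lay between 25.9 and 33.0 FPKM and was not called.

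Isg15, often used as a marker of interferon signalling, was not called in any comparison. Its level over the 6 libraries was 3.95 to 4.59 FPKM, and 13.1% of its 31-base words occur in other genes. Its promoter is shown because it held 3 ISRE cores, overlapping into 1 run, in a gene that differed neither by guide nor by number beyond the test's threshold.
Isg15 (chr4:156200789-156200948, minus strand): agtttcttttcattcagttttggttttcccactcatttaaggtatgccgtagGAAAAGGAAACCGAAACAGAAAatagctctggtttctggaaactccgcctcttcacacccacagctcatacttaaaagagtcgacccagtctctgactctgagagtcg

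**Figure D4:**
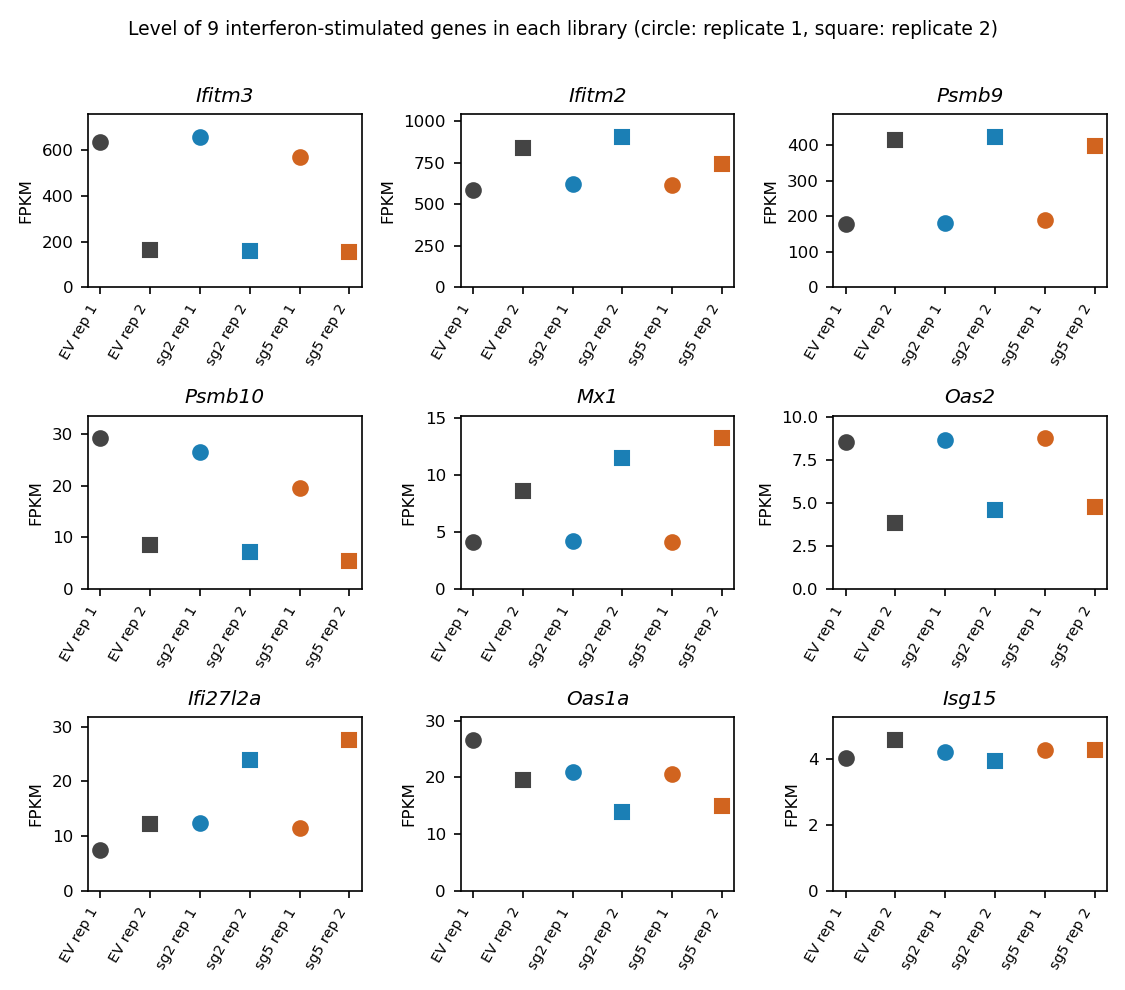
FPKM (vertical axis, from 0, own scale in each panel) in the 6 libraries (horizontal axis) for 9 interferon-stimulated genes, with circles for number 1 and squares for number 2. Ifitm3, Psmb10 and Oas2 are lower and Ifitm2, Psmb9 and Mx1 higher in all 3 number 2 libraries; in Ifi27l2a both guides lie above, and in Oas1a below, the EV library with the same symbol, and Isg15 stays between 3.95 and 4.59 FPKM.

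All 5 genes of antigen processing were called between the numbers (47.1% of all genes), 4 higher in number 2 (20.2%) and 1 lower (26.9%). These genes encode the immunoproteasome subunits Psmb8, Psmb9 and Psmb10, which cut proteins into peptides, and the transporter subunits Tap1 and Tap2, which carry the peptides to class I molecules. Psmb9 (ENSMUSG00000096727, GRCm38 chromosome 17, 34181987 to 34187764, minus strand) measured 177, 180.1 and 189 FPKM in the EV, sg2 and sg5 libraries of number 1 and 414, 423 and 398 FPKM in those of number 2. The number 2 libraries were all far above the number 1 libraries, with means of 182 ± 6.26 FPKM in number 1 and 412 ± 13.1 FPKM in number 2 (SD, n = 3 each). Psmb9 gave a log2 difference of 1.17 (SE 0.064, adjusted p = 0.00179). Tap1 measured 79.5, 80.2 and 89.1 FPKM in the EV, sg2 and sg5 libraries of number 1 and 165, 180.3 and 158 FPKM in those of number 2, again with all of number 2 higher, at 1.01 (SE 0.086, adjusted p = 0.00259). Psmb8 gave 0.71 (SE 0.061, adjusted p = 0.0026) and Tap2 gave 0.55 (SE 0.096, adjusted p = 0.0117), the Tap2 call being lost when either EV library was left out (adjusted p up to 0.0629). Both values are uncertain where their transcripts share 31-base words with overlapping or related genes, 13.7% of those of Psmb8 and 14.3% of those of Tap2.

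Psmb10, the third immunoproteasome subunit, went the other way. It lies apart from the others (ENSMUSG00000031897, GRCm38 chromosome 8, 105935735 to 105938444, minus strand) and measured 29.2, 26.6 and 19.5 FPKM in the EV, sg2 and sg5 libraries of number 1 and 8.52, 7.12 and 5.46 FPKM in those of number 2. All number 2 values were below all number 1 values, with means of 25.1 ± 5.01 FPKM in number 1 and 7.04 ± 1.53 FPKM in number 2 (SD, n = 3 each). The log2 difference was -1.70 (SE 0.068, adjusted p = 0.00156). The ratio of Psmb9 to Psmb10 was 6.07, 6.78 and 9.69 in number 1 and 48.6, 59.4 and 72.8 in number 2.

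Psmb9, Tap1, Psmb8 and Tap2 stand side by side on chromosome 17, and the RefSeq starts of Psmb9 and Tap1 lie 226 bases apart on opposite strands with gene models that overlap. The 250 bases before the Psmb9 start, which reach past the Tap1 start, are shown because both genes moved together. This window holds neither GAAANNGAAA nor the GAS core TTCNNNGAA, which says only that these letters are not in it.
Psmb9 (chr17:34187331-34187580, minus strand): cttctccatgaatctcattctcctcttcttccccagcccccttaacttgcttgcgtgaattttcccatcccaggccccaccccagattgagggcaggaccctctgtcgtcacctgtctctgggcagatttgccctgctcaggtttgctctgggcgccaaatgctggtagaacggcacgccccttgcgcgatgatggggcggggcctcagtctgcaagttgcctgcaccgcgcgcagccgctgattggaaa

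Of the 4 other genes, 3 were higher in number 2 (20.2% of all genes). Ifi27, a mitochondrial interferon-induced protein gene, measured 109, 113 and 122 FPKM in the EV, sg2 and sg5 libraries of number 1 and 174, 203 and 204 FPKM in those of number 2. All number 2 libraries were higher, at 0.75 (SE 0.064, adjusted p = 0.0026). Ifi27l2a, 1927 bases away, was higher too, at 0.92 (SE 0.12, adjusted p = 0.00582), a call lost without the group term at 0.92 (SE 0.32, adjusted p = 0.0513). Ifi35, a leucine zipper protein that pairs with Nmi and shares 12.8% of its 31-base words with an antisense gene, ran from 22.8 to 34.8 FPKM and gave 0.33 (SE 0.067, adjusted p = 0.0171), a call lost whichever library was left out (adjusted p up to 0.075). Xaf1 was not called.

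Position in the genome and the ISRE core were set beside these differences. Of the 49 genes, 17 pairs of neighbours lay within 100 kb, 14 pairs had both genes tested and 9 had both called. In 6 of these 9 pairs the genes had the same direction and in 3 (Gbp3 and Gbp2, Oas2 and Oas3, Ifitm2 and Ifitm1) opposite directions. Mx1 and Mx2 are among the 6, and Mx2 passed the filter only through number 2. The like counts over all neighbouring genes were not taken. With 47.1% of all genes called between numbers, these pair counts are a description only. A RefSeq promoter, from 250 bases before to 50 after the start, was matched for 37 of the 49. The ISRE core occurred in 18 of the 37 (48.6%) against 3.99% of the 27025 genes with such a promoter, and the GAS core in 12 (32.4%) against 9.55%. Over single promoters of that length, 32851 in all, the shares were 3.44% and 8.30%. Among tested genes with the ISRE core, 5 were higher in number 2 (Rsad2 included), 5 lower and 5 not called. Among those with a promoter but no core, 8 were higher, 4 lower and 5 not called. Over all genes tested, 20.2% were higher and 26.9% lower. A match is a description of letters in the window. Gene models of Irf7 and Phrf1, Irf9 and Rnf31, Adar and Chrnb2, Parp9 and Dtx3l, and Psmb9 and Tap1 overlap, and whether counting used strand is not given in the sources used here, so reads in the shared stretches are uncertain.

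The other genes of the interferon pathway numbered 90, of which 62 were tested. None of the 62 was called in guides against EV, without the block or with it (0.0% and 0.0387% of all genes). An unadjusted p under 0.05 was held by 0 and 3 of the 62, beside 1.31% and 5.72% of all genes tested. All guide libraries lay above both EV libraries for 1 of the 62 (2.54% of all genes tested) and below for 1 (2.56%). Tor3a, an interferon-induced ATPase of the endoplasmic reticulum, was the one above, at 9.81 to 10.5 FPKM against 8.68 and 9.27 FPKM. Its log2 difference was 0.15 (SE 0.11, adjusted p = 1.00). Traf3, an adaptor of interferon induction, was the one with all guide libraries below, at 15.4 to 17.7 FPKM against 20.1 and 17.8 FPKM. Its log2 difference was -0.19 (SE 0.13, adjusted p = 1.00). Between numbers 29 of the 62 were called (46.8%, against 47.1% of all genes), 14 higher in number 2 and 15 lower. Without the group term Rnaseh2c, a subunit of the same enzyme as Rnaseh2b, was called at -0.29 (SE 0.099, adjusted p = 0.0491), Pnpt1, an exoribonuclease gene, at -0.31 (SE 0.094, adjusted p = 0.0326) and Sp100, a nuclear body gene, at 0.39 (SE 0.12, adjusted p = 0.0372), while the calls of Ikbke and Apobec3 were lost at adjusted p = 0.0727 and 0.0539.

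Among the receptor genes Ifnar2 was higher in number 2, at 0.45 (SE 0.094, adjusted p = 0.0188). The type II receptor chain gene Ifngr2 was lower, at -0.64 (SE 0.075, adjusted p = 0.00441). Il10rb, a chain that type III interferon shares with interleukin 10, was lower, at -0.27 (SE 0.064, adjusted p = 0.0261). The call of Ifnar2 was lost when any single EV or sg2 library was left out (adjusted p up to 0.0828), and that of Il10rb whichever library was left out (up to 0.116). Of 11 tested genes of interferon induction 4 were higher (20.2% of all genes) and 3 lower (26.9%). Irf3, the factor that switches on interferon genes, was higher, at 0.75 (SE 0.061, adjusted p = 0.00244). Tmem173, which encodes the DNA-sensing adaptor STING, was lower, with the number 2 libraries at 3.17 to 3.77 FPKM against 8.74 to 10.6 FPKM, at -1.28 (SE 0.11, adjusted p = 0.00254).

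Smaller differences were found in the other induction genes. The kinase gene Ikbke gave 0.31 (SE 0.067, adjusted p = 0.0199) and the kinase gene Tbk1 gave -0.35 (SE 0.063, adjusted p = 0.013). The adaptor of RNA sensors, Mavs, gave 0.25 (SE 0.064, adjusted p = 0.0311), and the DNA sensor gene Mb21d1, which encodes cGAS, gave 0.33 (SE 0.097, adjusted p = 0.046). Myd88, the adaptor of Toll-like receptors, gave -0.38 (SE 0.069, adjusted p = 0.0128). Each of these 5 calls was lost when any single EV or sg2 library was left out, and those of Ikbke, Mavs and Mb21d1 also when either sg5 library was left out, with the highest adjusted p, 0.141, for Mb21d1.

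Of 10 tested genes listed as restraining the response 3 were higher in number 2 (20.2% of all genes) and 3 lower (26.9%). Ptpn6, the phosphatase SHP-1 that opposes Jak signalling, was lower, at -1.14 (SE 0.073, adjusted p = 0.00192). Rnaseh2b, a subunit of the enzyme that removes ribonucleotides from DNA, was lower, at -1.01 (SE 0.088, adjusted p = 0.00263). Ptpn2, another phosphatase of Jak and Stat proteins, was lower, at -0.52 (SE 0.081, adjusted p = 0.00844). Socs3, a Jak inhibitor induced by Stat3, was higher, at 0.78 (SE 0.091, adjusted p = 0.00435). Nlrc5, counted on this list though it is the activator of class I genes, was higher, at 0.48 (SE 0.080, adjusted p = 0.0106). Pias1, a SUMO ligase that restrains STAT signalling, was higher too, at 0.23 (SE 0.063, adjusted p = 0.04). Left-out libraries ended the calls of Pias1 (any library, up to 0.15), Nlrc5 (either sg2 library, up to 0.0623) and Ptpn2 (either EV library, up to 0.0585).

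Of 32 further interferon-responsive genes tested 5 were higher in number 2, 7 were lower and 20 were not called. Over all genes tested, 20.2% were higher and 26.9% lower. The lowest differences were in Nmi, a partner of Ifi35, at -1.40 (SE 0.092, adjusted p = 0.00196), and in Ifi47, an immunity-related GTPase, at -1.34 (SE 0.090, adjusted p = 0.00202). Slfn2 gave -1.20 (SE 0.10, adjusted p = 0.00263) and the GTPase gene Tgtp2 gave -0.65 (SE 0.092, adjusted p = 0.00682). The proteasome activator genes Psme1, at -0.45 (SE 0.065, adjusted p = 0.00703), and Psme2, at -0.39 (SE 0.074, adjusted p = 0.0142), were lower, as was Gbp7, at -0.26 (SE 0.069, adjusted p = 0.0362). Leaving out any single EV or sg2 library ended the call of Psme2 (adjusted p up to 0.0609), and leaving out any of the 6 ended that of Gbp7 (up to 0.133).

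The 5 higher genes were as follows. Tapbp, which encodes tapasin, gave 0.52 (SE 0.12, adjusted p = 0.0232). The class I genes H2-D1 and H2-K1 gave 0.31 (SE 0.071, adjusted p = 0.0244) and 0.30 (SE 0.059, adjusted p = 0.0159). Daxx, a histone chaperone gene on the same chromosome, gave 0.25 (SE 0.062, adjusted p = 0.0289), and Apobec3, a cytidine deaminase that mutates viral DNA, gave 0.24 (SE 0.069, adjusted p = 0.0439). All 5 calls were lost when any single EV or sg2 library was left out, and those of Daxx and Apobec3 also when either sg5 library was left out, with adjusted p of up to 0.166. B2m, the light chain of class I molecules, was not called and lay between 1637 and 1857 FPKM.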

How the data were processed

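The authors deposited 1 table of FPKM values per library, per the file headers. Per the submitters' processing notes, the tools were kallisto 0.43.0 and DESeq2 and the builds GRCm38 and mm10, with no role stated. How estimates became FPKM, and from which annotation, is not given in the sources used here. RNA came from RNeasy kits and libraries from a TruSeq kit that was sequenced on a HiSeq 4000, per the labels' protocols. Positions are from GENCODE M21 (GRCm38) by gene ID (47187 IDs matched), and promoters from RefSeq (GRCm38.p6).

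Genes averaging 1 FPKM or more were fitted as log2(FPKM + 1) in R 4.3.3 with limma 3.58.1 (intensity trend, two-sided) and Benjamini-Hochberg adjustment over all genes tested. Guides were 1 group of 4 libraries against 2 EV libraries, a 3-group fit gave each guide, and the number comparison had the group as a term. FPKM are not counts, so no count model was fitted. Depth was inferred from low FPKM values of 752 single-transcript genes over 4000 nt, with an assumed fragment length of 200 nt, and between 91.9 and 97.8% of them were whole within 0.15 fragments. The floor of 3 fragments covers counting error only. The fitting scripts were tested on simulated data. Tables and figures used matplotlib 3.10.9, scipy 1.17.1, pandas 2.3.3, numpy 2.4.6 and Python 3.11.15.

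Across the 12929 genes, number 2 minus number 1 correlated at 0.611 between EV and sg2, 0.591 between EV and sg5 and 0.583 between sg2 and sg5. The main guide fits have no block and do not pair the libraries, and their SEs are printed unless the block is named. From the correlations the numbers were read as pairing the libraries, a pairing that only the blocked fits use. That reading comes from the data. Results of the fit blocked on the number appear beside counts that it changes. Separate cultures are not named in any label. The p-values therefore reflect only how far these libraries spread, which may be technical.

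One gene of the pathway list is not reported here, though it stands in the list's counts. The 49 genes, their roles and the other lists were chosen with earlier results of these data known. A log2 difference, SE and adjusted p are given for genes called with or without the block (between numbers, with or without the group term), for the first genes by p among those whose groups did not overlap, and for 4 genes and Stat2, chosen after their values were seen. Shared 31-base words were counted over GENCODE M21 transcripts, and 14 of the 49 genes shared over 10% of them with other genes together. Alternatives were the block, a pseudocount of 0.1, no filter, a mean of at least 5 FPKM, median-of-ratios scaling, no trend, each library left out and the sg5 replicate 2 library counted as sg2.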

Additional observations from a re-analysis of the deposited data

Results flagged for a closer look

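Isg15 measured 3.95 FPKM in the sg2 replicate 2 library, the lowest of the 4 guide libraries. The gap to the nearest of the other 3 was 0.870 of the range of the 4, above Dixon's 95% critical value for 4 samples. Chance alone marks about 1 in 20 groups of 4 in this way, and the range of the 4 values was small, from 3.95 to 4.28 FPKM. The check was run on each of the 42 tested interferon-stimulated genes and marked no other. The 4 libraries mix guides and numbers, so they are not replicates of a single condition.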

How the results depend on the processing

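In guides against EV, the count of all genes called was 0 as reported, 5 with the replicate block, 6 with no filter, 4 with no trend and 0 to 1 with each library left out. For sg2 against EV, 1 gene was called as reported, 3 with the block and 0 with no filter, with a mean of at least 5 FPKM, with sg5 replicate 2 counted as sg2, or with any library left out. For sg5 against EV the count was 2 with the block and 18 with no filter, and for sg5 against sg2 it was 23 with no filter. In the blocked fits with each library left out, which were added after seeing the data, the count was 0 to 2 for the guides, 0 to 1 for sg2 and 0 for sg5. None of these fits of guide and EV libraries, 83 in all, called any of the interferon-stimulated genes.

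With each library left out and no block, the median over the tested interferon-stimulated genes ranged from -0.119 to 0.179 for guides. It ranged from -0.125 to 0.117 for sg2 and from -0.089 to 0.185 for sg5. Leaving out a library of a compared group leaves the numbers unequal between the groups. With the block, the range for guides was 0.026 to 0.077. Again without the block, the Parp9 difference ranged from -0.043 to 0.5002 for guides. It ranged from -0.169 to 0.551 for sg2 and from -0.071 to 0.603 for sg5. The Irf7 difference ranged from -0.021 to 0.675 for sg5. Xaf1, sg5 minus sg2, was -0.00888 with sg5 replicate 2 counted as sg2, and Isg15 in the blocked fit ranged from -0.028 to 0.132.

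Between numbers, leaving out either library of a group removes that group from the difference, and the counts were 3205 to 4365 of all genes, 20 to 28 interferon-stimulated genes and 12 to 25 other pathway genes. The median of the interferon-stimulated genes was then 0.218 to 0.340. It was 0.191 with no filter, which adds 7 low genes, and 0.367 with median-of-ratios scaling. The block changed no call of an interferon-stimulated gene in the guide comparisons. The cause of the other shifts was not tested. Genes near 1 FPKM are limited by depth, and copies such as Oas1a and Oas1g by shared sequence.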
